A study of Rattus norvegicus with 3 samples.

Results

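Gene expression in blood mononuclear cells of running rats was compared with that of control rats, taking the downhill and the uphill runners as a single group. A gene entered where its mean log2 intensity over the 3 arrays reached the median of all genes, and the probe set with the highest mean stood for a gene with several. This kept 6946 of 13892 genes. For each gene the shift is the mean of the log2 intensities on both running arrays minus that on the control array, and the gap is the absolute log2 difference between the running arrays. A gene whose shift was larger than its gap is called beyond the gap, and a fold is the geometric mean of the running intensities over the control intensity, or its inverse for genes lower in running.

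The animals were 2-month-old male Sprague-Dawley rats, an outbred laboratory strain. The groups were untreated controls, rats run downhill on a treadmill and rats run uphill on a treadmill, with 1 array each. Peripheral blood mononuclear cells are the lymphocytes and monocytes of blood, and 100 ng of their total RNA was labelled with biotin and hybridised to the Affymetrix Rat Expression Array 230 2.0. The sources used here do not say how many rats stand behind each array, how long they ran or when blood was taken.

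With 1 array in a group no difference below has a test or a p-value. The gap between the running arrays is the only spread available, and it holds both noise and any difference between the modes of running. The single control array enters every shift, so anything else that set this array apart cannot be told apart from running. In bulk RNA, fewer cells of a type and less RNA per cell cannot be told apart either. Median intensity over all probe sets was 228.74, 219.29 and 216.51 on the control, downhill and uphill arrays, and the 14 E. coli spike-in probe sets had a median shift of 0.19 with a gap of 0.20, whereas the 24 of B. subtilis had one of -0.18 with a gap of 0.08. The actin 3' to 5' ratio, a sign of RNA quality, was 2.39 on the control array and 2.87 and 2.68 on the running arrays, and its part in the results was not tested.

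Monocytes are phagocytes that circulate for a short time before they enter tissue, where they become macrophages. They carry Cd14, a co-receptor for bacterial endotoxin, are rich in lysosomes, and present peptides on class II molecules of the major histocompatibility complex (MHC). Exercise is known to move leukocytes between the circulation, the vessel wall and tissue, and lengthening contractions, which downhill running demands, are known to injure muscle fibres and draw phagocytes to them.

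Both running arrays lay on the same side of the control array for 4764 of 6946 genes (68.6%). The shift was beyond the gap for 3275 genes, 47.1% of those compared, with 1732 higher in running (24.9%) and 1543 lower (22.2%). Passing the gap is therefore common. With 1 control array, noise alone would also put both running arrays on the same side of it in most genes. Neither share by itself therefore shows a difference between running and control, and the account that follows rests on size as well. At 1.5-fold or more, 230 genes lay beyond the gap (3.31%), 138 of them higher (1.99%) and 92 lower (1.32%). At 2-fold or more there were 35 (0.504%), 31 higher (0.446%) and 4 lower (0.0576%). The floor is a mean over 3 arrays, 2 of them running, so a gene dim in control can pass it through high running values. This favours the higher side, so the excess of higher genes is not read as a result of running. Without a floor 3078 genes were higher and 3791 lower beyond the gap, and 20 were lower by 2-fold or more. The median absolute shift of all genes was 0.15 and the median gap 0.17, so a typical gene stood no farther from control than the running arrays stood from each other. When each array was instead centred on its own median, higher genes made up 66.2% of all genes beyond the gap, in place of 52.9%.

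**Figure D1:**
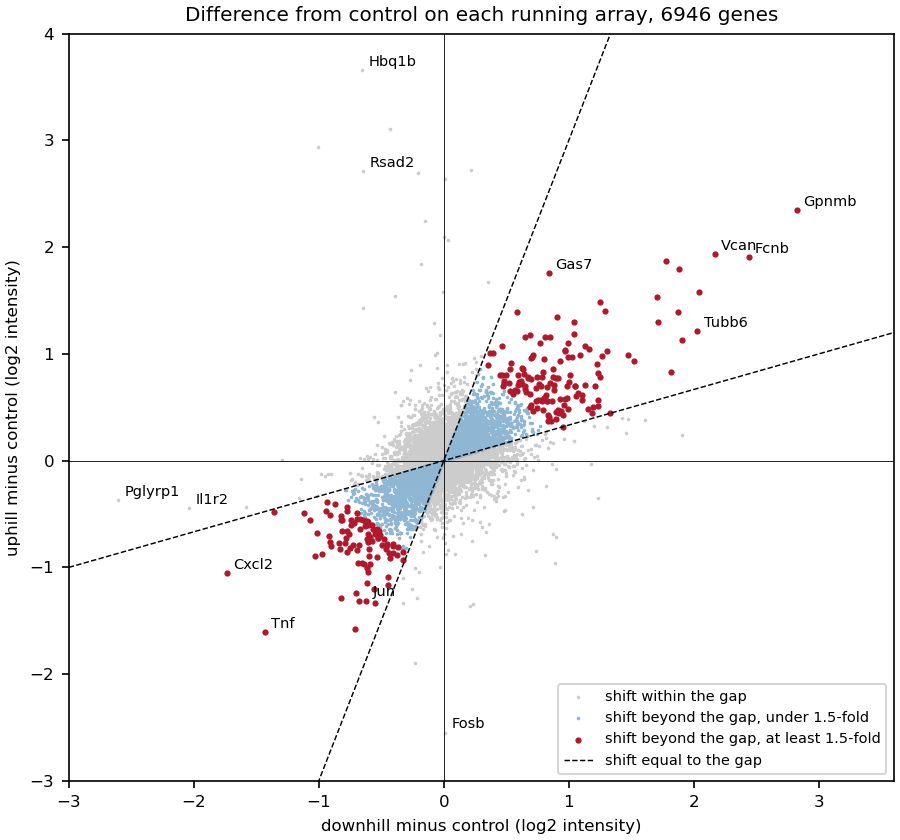
Each point is 1 of the 6946 genes, placed by its log2 difference from control downhill (horizontal) and uphill (vertical); dashed lines mark a shift equal to the gap, and genes between them are beyond it. Red points, the 138 higher and 92 lower genes at 1.5-fold or more, lie in the upper right and lower left wedges, while Hbq1b, Rsad2, Pglyrp1, Il1r2 and Fosb lie outside them because 1 running array moved far more than the other.

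Among genes measured by probe sets with 1 symbol, the largest shift was that of Gpnmb, a transmembrane glycoprotein of macrophages that handle lipid and debris. Its intensity was 248 in control, 1755 downhill and 1258 uphill, and intensities below keep this order unless named. Both running arrays stood far above control, a shift of 2.58 against a gap of 0.48, or 6.0-fold. The 250 bases before its transcription start are shown because this gene has the largest shift of the gene table. They lie at chr4:79340878-79341127 on the plus strand of GRCr8 (RefSeq), with capitals marking an AP-1 site (TGANTCA, the element bound by Fos and Jun proteins) 87 to 81 bases before the start.
Gpnmb: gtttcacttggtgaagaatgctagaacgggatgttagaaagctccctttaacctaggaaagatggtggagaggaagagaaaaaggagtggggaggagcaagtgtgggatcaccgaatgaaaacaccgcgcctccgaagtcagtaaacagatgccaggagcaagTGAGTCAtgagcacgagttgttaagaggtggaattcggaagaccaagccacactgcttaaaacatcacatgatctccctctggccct
An AP-1 match within this distance was held by 6.36% of all 27457 promoters, by 4.26% of the genes compared here that have a promoter in the table, by 12 of 110 genes higher by 1.5-fold or more and by 4 of 70 lower ones. A match is only a run of letters and says nothing of binding.

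Next in size were genes of the recognition of microbes and of the tissue matrix. Fcnb, a ficolin that binds microbial sugars and starts the lectin pathway of complement, read 1648, 8932 and 6178 on the control, downhill and uphill arrays (shift 2.17, gap 0.53). Vcan, the proteoglycan versican, which classical monocytes make in humans, read 899, 4047 and 3430 (shift 2.05, gap 0.24). In both genes both running values lay far above the control value, and the 4 other probe sets for Vcan had shifts of 1.96 to 2.25. Clec10a, a C-type lectin of macrophages and dendritic cells that binds galactose, stood at 431 in control and 1586 and 1496 in running (shift 1.84). Fn1, fibronectin, went from 2200 in control to 7564 and 8023 in running (shift 1.82). For these last genes the running arrays nearly coincided, with gaps of 0.08 each.

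Cd14 itself read 1330 in control, 4341 downhill and 3844 uphill. The running arrays again lay close together, 3.07-fold above control, with a shift of 1.62 and a gap of 0.18. Thbd, thrombomodulin, a cell surface cofactor that turns thrombin towards protein C, read 385, 1584 and 1154 (shift 1.81, gap 0.46), although its other probe sets shifted by 0.32 to 1.26. Ass1, the enzyme that makes argininosuccinate and so lets cells recycle citrulline to arginine, read 190, 694 and 497 (shift 1.63, gap 0.48). All probe sets for Thbd were thus higher in running, but by unequal amounts.

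Several of the largest shifts differed more between the running arrays. Tubb6, a beta tubulin, read 254, 1036 and 589, and its other probe set shifted by 0.09 only. C2, the complement protease that is part of the C3 convertase, read 596, 2240 and 1303, with other probe sets at 1.41 and 1.61. Gas7, a protein that shapes the actin skeleton, read 906, 1623 and 3056 and was the one of these with the higher value on the uphill array. Tppp3, a protein that binds tubulin, was not called present on the control array at 287, and at 1009 and 509 in running it was at least 2.50-fold higher. Their gaps were 0.81, 0.78, 0.91 and 0.99, against shifts of 1.62, 1.52, 1.30 and 1.32.

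Mt2A, a metallothionein that binds zinc and copper and responds to metal and to glucocorticoids, read 577 in control, 1889 downhill and 1421 uphill. Its shift of 1.5 was well beyond a gap of 0.41. The second metallothionein above the floor, Mt1, read 284, 667 and 406 (shift 0.87, gap 0.72). The Mt2A promoter is shown since metal response elements are the best known control of this family. It lies at chr19:10838709-10838958 on the minus strand of GRCr8 (RefSeq), and capitals mark, in order, an AP-1 site 237 to 231 bases before the start, an E-box (CACGTG) at 202 to 197, and metal response elements (TGCGCNC on either strand) at 165 to 159 and at 55 to 49.
Mt2A: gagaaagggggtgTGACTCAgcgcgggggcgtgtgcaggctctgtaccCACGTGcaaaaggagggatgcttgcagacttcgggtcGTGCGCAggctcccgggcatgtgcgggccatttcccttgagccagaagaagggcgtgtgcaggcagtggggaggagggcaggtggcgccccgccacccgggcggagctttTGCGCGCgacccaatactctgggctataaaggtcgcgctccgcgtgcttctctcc
These short letters are common: 12.7% of all promoters and 24.6% of those of the genes compared held a metal response element, as did 12 of 110 higher and 20 of 70 lower genes. The remaining 2 of the 15 largest were Tgfbi, an adhesion protein of the matrix (1675 in control, 3994 and 4693 in running, shift 1.37), and Sulf2, a sulfatase that edits heparan sulfate (555, then 1359 and 1468, shift 1.35).

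The other 16 genes that were 2-fold higher or more, most of them named here as part of that count, had shifts of 1.0 to 1.23. Niban2, Tnfsf13 (the B cell survival factor APRIL), Anpep (a surface aminopeptidase of myeloid cells), Anxa3, Anxa4 (calcium-dependent membrane binding proteins), Fggy (a carbohydrate kinase), Mal, Gyg1 (the primer of glycogen synthesis), Popdc2, Rin2 and Plbd1 (a lysosomal phospholipase) stood in no gene list examined. Dusp6, a phosphatase that switches off ERK kinases, read 1614, 4634 and 3092 (shift 1.23), with other probe sets at 0.97 and 1.17. Gm2a, the activator protein for ganglioside breakdown in lysosomes, read 1347, 2777 and 3320 (shift 1.17). Lgals3, the macrophage lectin galectin-3, read 3743, 8731 and 7025 (shift 1.07). Fcna is a second ficolin, with 339, 808 and 585 (shift 1.02).

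Only 4 genes were lower by 2-fold or more beyond the gap, and Tnf, the inflammatory cytokine tumour necrosis factor, led them. It read 1044 in control, 387 downhill and 342 uphill. The running arrays lay close together and well below control (shift -1.52, gap 0.18), but the other probe set for Tnf shifted by -0.26. Cxcl2, a chemokine that attracts neutrophils, read 1878, 565 and 907 (shift -1.39, gap 0.68). Ccrl2, a receptor that binds chemerin without signalling, read 1966, 1114 and 805 (shift -1.05, gap 0.47).

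The Cxcl2 promoter is shown because this gene is a textbook target of the inflammatory factor NF-kappaB. It lies at chr14:17467256-17467505 on the minus strand of GRCr8 (RefSeq), and capitals mark kappaB sites (GGG, any 2 bases, then TTTCC) at 74 to 65 and at 54 to 45 bases before the start.
Cxcl2: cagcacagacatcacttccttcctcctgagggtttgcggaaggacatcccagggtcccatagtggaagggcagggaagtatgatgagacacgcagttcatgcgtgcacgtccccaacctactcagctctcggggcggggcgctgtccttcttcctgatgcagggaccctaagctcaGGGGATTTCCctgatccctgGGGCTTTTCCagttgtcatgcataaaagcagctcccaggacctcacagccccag
A kappaB match was held by 1.28% of all promoters, by 1.60% of those of the genes compared, and by 3 of 110 higher and 1 of 70 lower genes. The same window of Tnf, Fcnb, Vcan, Cd14 and Ccrl2 was searched as well and held no match to any of these motifs, nor to PU.1 (GAGGAAGT) or the cAMP response element (TGACGTCA), which says nothing of other sites or of the factors. Both strands were searched, and no marked site overlaps another.

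Jun, a Fos partner in AP-1, read 4677, 3047 and 1884 (shift -0.96, gap 0.69), and its other probe sets shifted by -1.48 and -1.47. Crim1, a membrane protein that binds bone morphogenetic proteins, read 1629, 799 and 879 (shift -0.96, gap 0.14). Sh3bgrl2, a small thioredoxin-like protein, read 2888, 1545 and 1658 (shift -0.85, gap 0.10). Cracd, an inhibitor of actin capping, read 676, 379 and 381. That was among the closest agreements of the running arrays in the 15 largest negative shifts, with a gap of 0.01 beside a shift of -0.83. Retnla, which alternatively activated macrophages secrete in mice, was less even, at 1162, 452 and 831 (shift -0.92, gap 0.88). Others of the 15 were Skida1 (shift -0.97, with 0.06 in its other probe set), the linker histone H1f4 (-0.88), C1ql1 (-0.88), Asap2 (-0.85), the Mediator subunit Med16 (-0.84, with -0.21 in its other probe set) and Plscr2 (-0.82).

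**Figure D2:**
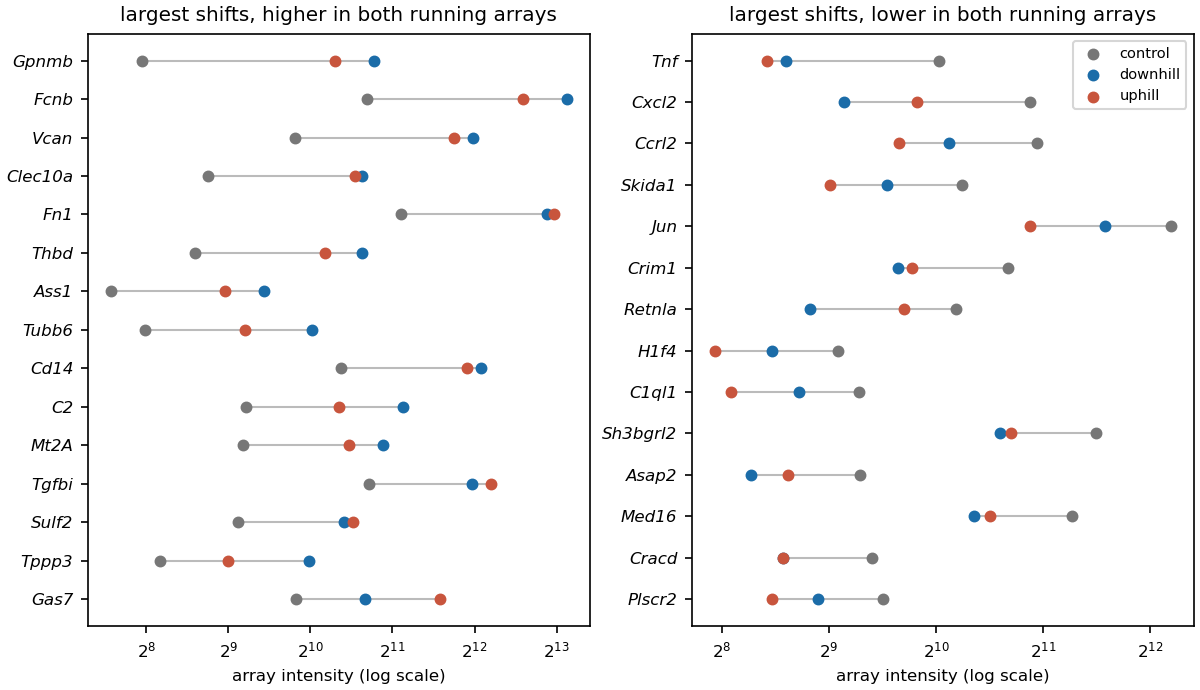
Intensity on the control (grey), downhill (blue) and uphill (red) arrays, on a log scale, for genes from the 15 with the largest positive shift (left) and the 15 with the largest negative shift (right) among those beyond the gap. The running points of Clec10a, Fn1 and Cracd nearly coincide, whereas those of Tppp3, Gas7 and Retnla lie far apart; every control point is at the opposite end of its bar.

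The genes at this size differed among themselves in which running array lay farther from control. Of the 138 higher genes, 84 were farther from control downhill and 54 uphill. Among the 31 at 2-fold or more the split was 21 and 10. For the 92 lower genes it was 39 downhill and 53 uphill. The same split was not counted over all genes, so these counts show no lean towards either mode of running. The median gap was 0.27 in the higher and 0.24 in the lower genes, wider than the 0.17 of all genes. A gap under 0.1 was held by 25 and 18 of them, but the share of all genes with such a gap was not counted. On the control array, their brighter side, 19 of the 92 lower genes were not called present, against 1 of the 138 higher genes on the running arrays. These 19 were not all dim, with control intensities from 485 (Fbrs) to 962 (Akt2). Of all 6946 genes, 6407 were called present on all 3 arrays. Regardless of the gap, 164 genes were higher by 1.5-fold or more (2.36%) and 107 lower (1.54%), so that the gap removed 26 and 15 of them.

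At the edge of the rule, Arl11 (357 in control, 897 downhill, 486 uphill) had a shift of 0.89 and Slamf9 (375, 727 and 468) a shift of 0.64, each just larger than its gap. Mcub (406, 886 and 525) with a shift of 0.75 and Asb11 (1243, 615 and 989) with one of -0.67 fell just short. In each of these 4 genes the downhill array stood about 3 times as far from control on the log2 scale as the uphill array, which is what the edge of the rule means.

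Many genes were measured by more than 1 probe set, and the other probe sets were not used to choose them, although they come from the same RNA. For the 1171 genes that had a further probe set past the floor, it shifted the same way in 66.4%. Where the brightest probe set was beyond the gap, this was so for 74.8% of 555 genes, and where it was not, for 58.9% of 616. Of 19 genes higher by 1.5-fold or more, 17 shifted the same way in the other probe set, 15 of them beyond its own gap and 12 by at least 1.5-fold. Of 13 lower genes, 11 shifted the same way, 8 beyond its own gap and 4 by at least 1.5-fold. Examples with both probe sets far from control were Vcan, C2, Tnfsf13, Timp3 (-0.62 and -0.67), an inhibitor of metalloproteinases, and Me1 (-0.71 and -0.93), the cytosolic malic enzyme. Ms4a6a (0.85 and -0.04), Med21 (-0.71 and 0.22) and Rab20 (0.61 and -0.02) did not repeat, and these genes were picked after their values were seen.

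Gene lists were then read by the number of their members beyond the gap in each direction, beside 24.9% higher and 22.2% lower over all genes. Medians within 0.07 of 0 carry no direction, since 8 lists with such medians changed sign when the arrays were scaled another way. Of 28 monocyte and macrophage genes above the floor, 21 were higher, none was lower and 13 were higher by 1.5-fold or more. The list's median shift was 0.62, against 0.02 for all genes, and its median difference from control was 0.74 downhill and 0.44 uphill. Besides Vcan, Clec10a, Cd14, Lgals3 and Fcna, the lysosomal membrane marker Cd68 (2204, 4648 and 3420, shift 0.85) belonged to it. Klf4, a factor of classical monocytes, was high on the downhill array alone (2347, 4132 and 1987), so its gap of 1.06 exceeded its shift of 0.29. Summed over the list, intensity was 88798 in control, 138948 downhill and 123966 uphill.

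Markers of the other blood cells moved less or unevenly. All 19 T cell and all 14 B cell genes above the floor were called present on every array. So were 6407 of all 6946 genes above the floor, and this says little of the cell type. Of the T cell genes 2 were higher and 6 lower (median shift -0.04), the lower ones including Gata3 (2544, 1902 and 2032, shift -0.37), a factor of T helper cells, and Trat1 (1156, 943 and 836, shift -0.38), which sits beside the T cell receptor. Of the B cell genes 2 were higher, the surface antigen Ms4a1 (2582, 3241 and 3267, shift 0.33) and the kinase Btk (shift 0.36), none was lower, and the median was -0.02. The plasma cell list had 1 higher and 1 lower of 4 (median 0.08), with the secretory factor Xbp1 at 1995, 3214 and 3070 (shift 0.66), a gene that other cells use as well. Among dendritic cell genes 2 of 3 were higher (median 0.18). None of the 12 basophil and mast cell genes on the array reached the floor.

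Natural killer and cytotoxic lymphocyte genes were higher in 9 of 16 and lower in none, with a median shift of 0.26. The median gap was 0.18, against 0.17 for all genes. The other 7 lay within the gap, among them Cst7 (shift 0.44, gap 0.58) and Ncr1 (shift -0.24, gap 0.50). Gzmb, the killing protease granzyme B, read 3453, 4714 and 4557 (shift 0.42, gap 0.05). Il2rb, a receptor chain for interleukin-2 and interleukin-15, read 1084, 1482 and 1517 (shift 0.47, gap 0.03). Both running arrays lay above control and close to each other in these genes. Cd244l1, a receptor of the SLAM family, was the only member at 1.5-fold (484, 781 and 685, shift 0.60), but its other probe set shifted by -0.16.

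Platelet genes went the other way, with 10 of 16 lower and 1 higher (median shift -0.24). P2ry12, the ADP receptor of platelets, read 1593, 985 and 1090 (shift -0.62, gap 0.15). Gp5, a subunit of the von Willebrand factor receptor, read 2055, 1354 and 1489 (shift -0.53). Vwf itself read 3993, 2729 and 3186 (shift -0.44), while Pf4, the main platelet chemokine, differed little, at 31873, 28966 and 30199 (shift -0.11). The one higher member was Tbxas1, thromboxane synthase, which monocytes make too, with 596, 1215 and 1170 (shift 1.0, gap 0.05). Summed platelet marker intensity was 133377 in control, 112134 downhill and 128319 uphill, so platelet RNA was abundant on all arrays of a mononuclear preparation.

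Many neutrophil and red cell genes differed widely between the running arrays. Neutrophil genes had a median shift of -0.53 with a median gap of 0.81, and 4 of 10 were higher and 1 lower beyond the gap. Pglyrp1, a bactericidal granule protein, was far lower on the downhill array than on the uphill array (1254, 206 and 969), and so was the decoy receptor Il1r2 (1490, 363 and 1095). Fcnb, the protease inhibitor Slpi (4562, 9795 and 6973, shift 0.86) and the haemoglobin scavenger haptoglobin, Hp (406, 610 and 1064, shift 0.99), were higher. Of 14 erythroid genes 1 was higher and 3 lower, and 7 were called present on every array. The higher one, Epor, was called absent on all 3 arrays, and its other probe sets shifted by -0.14 and -0.06. The lower ones, Gypc, Rhag and Gata1, were called present on every array and were lower uphill too (-0.32, -0.28 and -0.59). The median of the 14 genes was -0.35 downhill but 1.55 uphill, with Hbq1b, a globin, at 346, 220 and 4380. Summed erythroid intensity was 9594, 7595 and 31757, and its part in the shifts of other genes was not tested. The skeletal muscle list, of which 3 genes reached the floor, had 2 lower (median -0.21). Of these 3 genes only Eno3 was called present on every array.

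**Figure D3:**
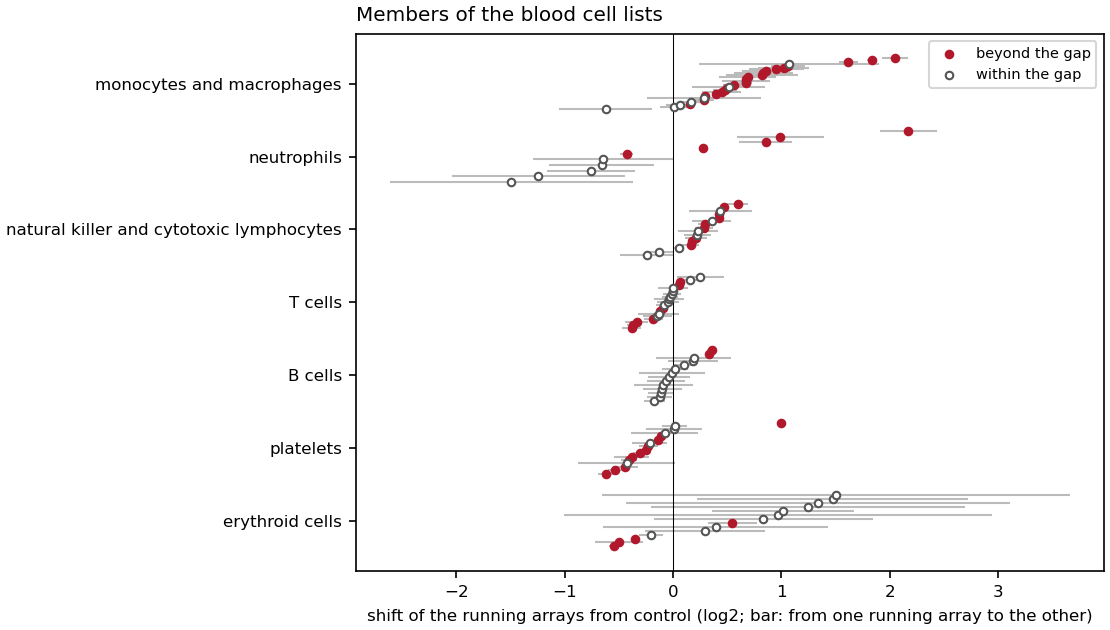
Shift from control (log2) of each member of 7 blood cell lists, with a bar running from the difference on 1 running array to that on the other; filled points are beyond the gap and open points within it. Most monocyte members lie to the right with short bars and most platelet members to the left, with Tbxas1 far to the right, whereas bars of neutrophil and erythroid members are long.

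Among pathways, the complement and ficolin list had 9 of 15 genes higher and 1 lower (median 0.37), and Fcnb, C2 and Fcna were among its largest shifts. Cfb, the protease of the alternative pathway, was higher downhill than uphill (600, 1480 and 746). The lipid-handling macrophage list had 9 of 17 higher and 3 lower (median 0.54), with Cd36, a scavenger receptor for oxidised lipid, at 2101, 3381 and 4751 (shift 0.93) after Gpnmb and Lgals3. Plin2, which coats lipid droplets, was likewise higher downhill than uphill (1227, 3739 and 1593). The matrix list had 8 of 15 higher and 2 lower (median 0.37), led by Vcan, Fn1 and Tgfbi. These lists share members, 2 of the complement, 2 of the lipid and 2 of the matrix genes also standing in the monocyte list. The floor matters here, since it kept 15 of 36 matrix genes on the array. Without a floor the matrix median was -0.0017 and the lipid median 0.23.

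Lysosomal enzymes and subunits of the proton pump were higher in 32 of 59 genes and lower in 8, with 10 higher and 1 lower by 1.5-fold or more and a median shift of 0.26. Npc2, which carries cholesterol out of lysosomes, read 2376, 4205 and 3832 (shift 0.76). Lgmn, an asparagine-specific protease, read 1542, 2411 and 2711 (shift 0.73), although its other probe set shifted by 0.07 only. The class II presentation list had 9 of 13 higher and none lower, with a median shift of 0.39 and a median gap of 0.12. In it Ifi30, the thiol reductase of lysosomes, read 4312, 7496 and 7681 (shift 0.82, gap 0.04) and Ctss, the cathepsin that trims the invariant chain, read 5168, 7601 and 7945 (shift 0.59, gap 0.06). RT1-DMb, a chain of the peptide exchanger, read 4153, 5949 and 6091 (shift 0.54, gap 0.03). The running arrays agreed closely in all of these, while Ciita, the master regulator of class II genes, read 588, 594 and 521 and stayed within its gap.

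Probe sets for the rat MHC, called RT1 and placed on chromosome 20, did not all move alike. RT1-Bb, a class II beta chain, had a probe set that carries 2 symbols and so lay outside the gene table: 1371033_at read 45.0 in control, 2871 downhill and 2894 uphill. It aligns to chromosome 20 from 4730559 to 4736179 on Rnor3.4 and was 64.1-fold higher in running, with a gap of 0.01. The other RT1-Bb probe set, 1371065_at, read 3965, 3177 and 3813 (shift -0.19, gap 0.26). For RT1-Db1, another beta chain, 1370382_at read 692, 1500 and 1519 (shift 1.12) while its brighter probe set shifted by 0.29. Among class I genes, 2 probe sets listed for RT1-CE5 were lower (shifts -0.77 and -0.71, gaps 0.04 and 0.01). Of 32 RT1 probe sets above the floor and called present, 5 (15.6%) shifted by 1.5-fold or more beyond the gap, against 3.64% of 10319 such probe sets in all, and their median gap was 0.07 against 0.17. Probe sets of 1 gene therefore disagreed about class II, and the cause was not tested. Outbred rats can carry different RT1 alleles, which a probe set need not bind equally, and the labels do not give those of these rats, so from these probe sets a difference in alleles and one in RNA level cannot be told apart.

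**Figure D4:**
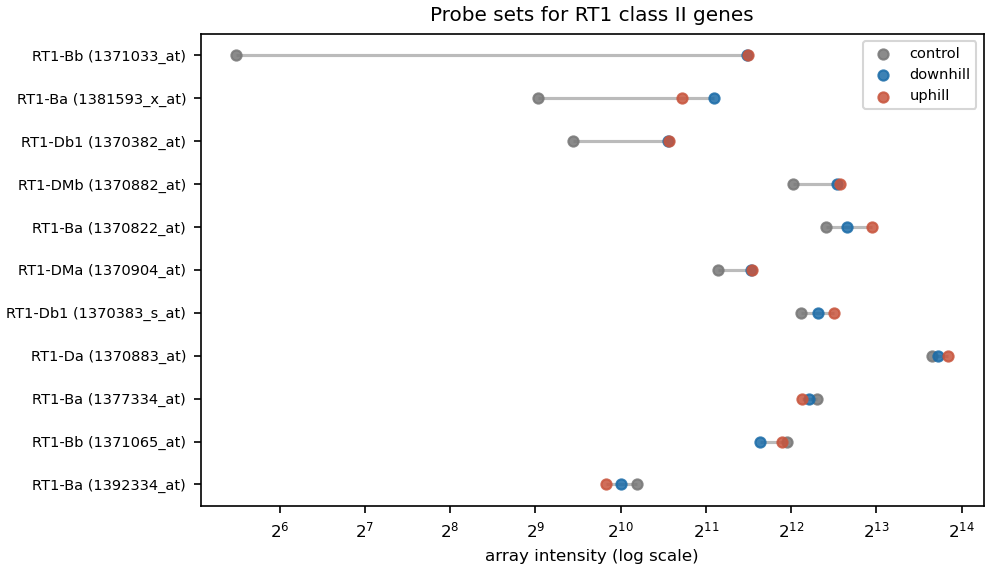
Intensity on the 3 arrays, on a log scale, of every probe set listed for an RT1 class II gene, ordered by shift; 1381593_x_at and 1392334_at were called absent on all 3 arrays. RT1-Bb appears at the top, with control at 45.0 and the running arrays at 2871 and 2894, and again near the bottom, where all 3 arrays lie together.

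Genes of energy metabolism shifted by small amounts, of a size near the spike-in medians of 0.19 and -0.18. Another probe set above the floor shifted the same way for 0 of 2 oxidative phosphorylation genes and 2 of 4 fatty acid genes. It did so for 3 of 6 proteasome, 1 of 1 glycolysis and hypoxia, and 5 of 5 cholesterol genes. Of 63 nuclear genes of oxidative phosphorylation, 41 were higher and 1 lower, with a median shift of 0.24 and none at 1.5-fold. Ndufs8, a subunit of complex I, read 921, 1312 and 1290 (shift 0.50, gap 0.02). Proteasome subunits were higher in 20 of 41 and lower in 1 (median 0.19), with Psmd7 at 860, 1185 and 1323 (shift 0.54). Genes of fatty acid uptake, storage and oxidation were higher in 13 of 30 and lower in 1 (median 0.16), with Hadh, which oxidises hydroxyacyl chains, at 739, 991 and 1000 (gap 0.01). Glycolysis and hypoxia targets had 5 of 17 higher and 3 lower (median 0.10). Egln3, an oxygen sensor that hypoxia itself induces, was the lowest of these, at 640, 381 and 363 (shift -0.78, gap 0.07). Cholesterol genes were lower in 8 of 25 and higher in 5 (median -0.11). The synthesis enzyme Hmgcs1 read 1483, 1144 and 982 (shift -0.48).

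Stress, repair and protein synthesis lists had small median shifts. The metallothionein, antioxidant and iron storage list had 13 of 32 higher and 7 lower (median 0.12), with 6 higher by 1.5-fold or more. Prdx5, a peroxide-reducing enzyme, read 3745, 7534 and 6541 (shift 0.91), and Gpx1, glutathione peroxidase, read 8277, 13171 and 14117 (shift 0.72). Chaperones were higher in 13 of 30 and lower in 2 (median 0.09), and cytosolic ribosomal proteins in 14 of 34 and none (median 0.07, which became -0.0095 after quantile normalization). Arginine, urea and polyamine genes split into 6 higher and 8 lower of 17 (median 0.01), and cell cycle genes into 4 and 6 of 22 (median -0.12), with Rrm2, a subunit of ribonucleotide reductase, at 867, 560 and 602. The circadian clock list had 2 of 11 higher and 4 lower (median -0.05), and the repressor Cry1 read 897, 614 and 740 (shift -0.41).

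In the signalling lists the running arrays often differed from each other. Of 37 immediate early genes, which cells transcribe within minutes of a stimulus, 1 was higher, 9 were lower and 27 lay within the gap, and the median shift was -0.17 with a median gap of 0.48. Nr4a2, an orphan nuclear receptor, read 939, 602 and 478 (shift -0.81), and Ier3 read 756, 503 and 387 (shift -0.78). Fosb, a partner of Jun, was low on the uphill array only (1661, 1677 and 284), as was the stress factor Atf3 (578, 678 and 227). Inflammatory cytokines and their feedback had 2 higher and 4 lower of 17 (median -0.01), and Il1b, interleukin-1 beta, read 7295, 5723 and 5007 (shift -0.45). Chemokines had 1 higher and 3 lower of 9 (median -0.11), with Ccl4, which attracts lymphocytes, at 7059, 8182 and 2749. Chemokine receptors had 2 higher and 1 lower of 5 (median 0.03). Ccr1, a receptor of monocytes, read 572, 1302 and 777 (shift 0.82, gap 0.75).

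Interferon response genes had 3 higher and 8 lower of 32 (median 0.00), the lower ones including Ifit2 (1716, 1366 and 899), which blocks viral translation, and the ubiquitin-like Isg15 (2527, 1990 and 1434). Rsad2, the antiviral enzyme viperin, was high on the uphill array only (489, 313 and 3201). The Toll-like receptor list had 6 of 19 higher and 4 lower (median 0.08), and Tlr2, the receptor for bacterial lipoproteins, read 853, 1153 and 1181 (shift 0.45, gap 0.03). The coagulation list had 4 of 12 higher and 2 lower (median 0.08), with Thbd at the top and F5, coagulation factor V, at 15604, 9793 and 12354 (shift -0.50). Glucocorticoid-responsive genes had 8 of 24 higher and 4 lower (median 0.05). Within that list Mt2A and Thbd were higher, whereas Ddit4, an inhibitor of growth signalling that glucocorticoids and hypoxia induce, read 2515, 1629 and 1703 (shift -0.60, gap 0.06) and the clock gene Per1 read 4300, 3967 and 4666.

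**Figure D5:**
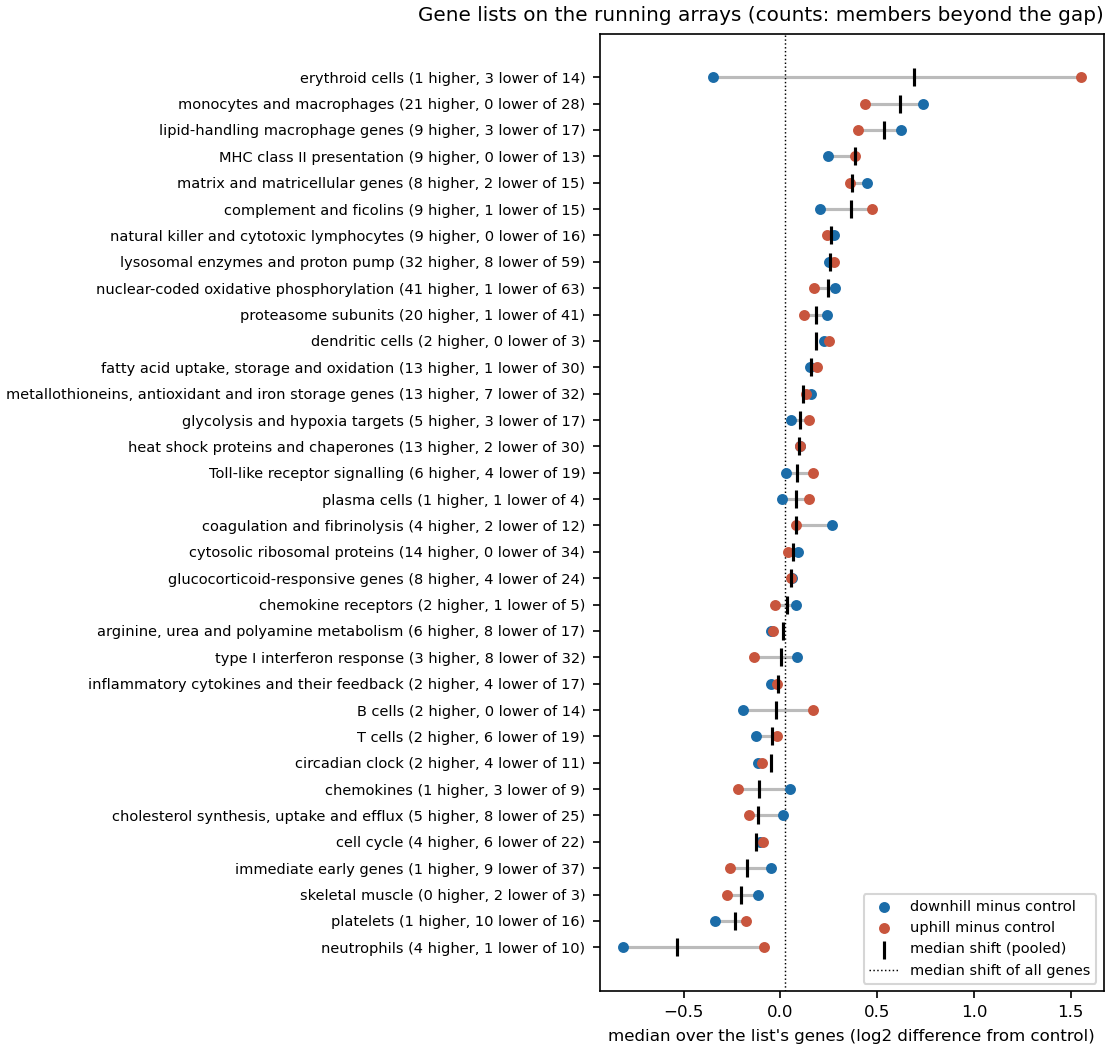
Median log2 difference from control over each list's genes above the floor, downhill (blue) and uphill (red), with a black tick for the median shift and a dotted line for all genes (0.02). The monocyte, lipid, complement, matrix and class II lists lie to the right on both arrays, platelet genes to the left on both, and the erythroid list spans -0.35 to 1.55. Without a floor the median shift of the matrix list was -0.0017.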

How the data were processed

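Total RNA of mononuclear cells was measured on 3 arrays, 1 each for control, downhill and uphill running, grouped by the labels. The deposited intensity of each of 31099 probe sets had been made by the authors with RMA, per the submitters' processing notes. Neither a software version nor a genome build is stated there. This deposited intensity is on a linear scale, from 1 to 34067, and was turned into log2 here without an offset. The present and absent calls deposited by the authors have no stated algorithm. A second deposited table of intensity was equal in all 93297 of 93297 cells (within 1e-06).

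Of 19628 probe sets with 1 symbol, control probe sets aside, 19186 of 19622 matched the current rat gene table through their Entrez number (assembly GRCr8, names only), which gave 13892 genes, 4064 with several probe sets. The floor was the median over genes, an intensity of 354. The number of arrays limits the precision.

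No test was run. Shift and gap were computed with Python 3.11.15 and pandas 2.3.3, checked on simulated data with 200 changed genes, and cyclic loess used limma 3.58.1 in R 4.3.3 (span 0.7). Named genes were the 15 largest shifts each way beyond the gap with the brighter side called present, up to 4 members of each of 35 lists beyond the gap and 2 within it, and 2 genes on each side of the edge; genes named outside this rule are others of the 2-fold count and a few picked after their values were seen. The members and lists were chosen with earlier results of these data known, and motifs and the RT1 probe sets after the values were seen. A fold is written as at least where the dimmer side was not called present. A few genes that meet this rule have been left unreported. Alternatives were other floors, scalings, probe set rules, offsets and gap rules, and each running array alone.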

Additional observations from a re-analysis of the deposited data

Results flagged for a closer look

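The erythroid list stood apart because its median lay on opposite sides of control on the running arrays and at least 1.5-fold separated them: 1.55 uphill against -0.35 downhill. Rsad2 (2.71 uphill, -0.64 downhill) and F2r, the thrombin receptor (-0.71 uphill, 0.90 downhill), were the genes chosen for naming, and called present on the brighter side, that were at least 1.5-fold from control on both running arrays in opposite directions. Over all genes above the floor, Hes1, a repressor downstream of Notch, also did so (937 in control, 1735 downhill and 482 uphill), as did, among others, Rgcc and Mex3b, all named after their values were seen. The globin genes Hba-a3 and Hbq1b did so too but were called present on the uphill array alone. None of these differences was tested, since each rests on 1 array a side. Probe sets outside the gene table were looked at where they were called present on both running arrays and were higher in running by 2 log2 units or more, and 4 were. They were 1371033_at, listed for LOC688090 and RT1-Bb (shift 6.003), and 3 without a symbol, 1397859_x_at (4.04), 1393108_at (2.83) and 1396304_at (2.12). On the lower side 1383058_at (-2.55) and 1385590_at (-2.04), without a symbol, were as far from control.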

How the results depend on the processing

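With 1 control array, all counts rest on that array, and no count has an error. No paired analysis was possible because each group has 1 array and no replicate numbers to pair. Without a floor 3078 genes were higher and 3791 lower beyond the gap, 211 were lower by 1.5-fold or more and 20 by 2-fold or more. The increase over the counts above the floor came from the dim genes added. With the floor at the 75th percentile, which halved the genes, the counts were 975 higher and 630 lower, 82 and 31 at 1.5-fold, and 20 and 2 at 2-fold. Asking for 2 times the gap left 996 and 898 genes, and 61 lower by 1.5-fold. Centring each array on its median left 60 lower by 1.5-fold; the cause was not tested. Genes present on all 3 arrays, with no floor, gave 10 lower by 2-fold, and asking only for the same side of control gave 8. With either running array alone, and so no gap, 221 to 223 genes were higher and 146 to 173 lower by 1.5-fold, and 50 to 54 and 15 to 24 by 2-fold.

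Under the other scalings the median shift changed sign in 8 lists (T cells, B cells, arginine, chemokine receptors, clock, ribosomal, cytokines and interferon), all within 0.0671 of 0. Without a floor the dendritic list turned to -0.13 and the matrix list to -0.0017, and the lipid list fell to 0.23. At the 75th percentile the arginine list moved to -0.13, the cell cycle list to 0.043 and the matrix list to 0.65. The muscle list went to -0.42 with the mean of all probe sets, and class II genes ranged from 0.24 (downhill) to 0.39 (uphill). No named gene beyond the gap changed direction under any alternative; of all named genes' values, 41 moved, 17 of them with centred arrays.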

Other observations

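The RT1 probe sets with uneven shifts lie beside other genes named above, as seen after the values were known. On Rnor3.4 the RT1 probe sets span chromosome 20 from 36760 to 5060535. Of 111 probe sets within that span that were above the floor and called present, 15 (13.5%) shifted by 1.5-fold or more beyond the gap and 7 (6.31%) by 2-fold or more, against 3.54% and 0.539% of the 10208 outside it. Higher ones included all 3 probe sets for C2 (1.41, 1.52 and 1.61), Aif1, a calcium-binding protein of macrophages (2173, 4837 and 3043 on the control, downhill and uphill arrays), and Lst1, a myeloid membrane protein (2152, 4009 and 2946). Lower ones were Tnf, Ier3 and 2 of the probe sets listed for RT1-CE5. The largest besides RT1-Bb was 1397859_x_at, without a symbol, with 138 in control and 2547 and 2039 in running. The RT1 probe sets that set the span are counted within it, and 3 higher and 2 lower ones are among the 15. The share inside therefore rests in part on probe sets already seen to shift. Probe sets of 1 gene are not independent, and no test was made of this region.

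Of 2658 probe sets without a single symbol above the floor, 10 were higher and 4 lower by 2-fold or more beyond the gap, together 0.527%, close to the 0.504% of all genes. On chromosome 4 (56870099 to 56870320, plus strand) 1393108_at read 193 in control and 1381 and 1371 in running. On chromosome 12 (33865410 to 33865780, plus strand) 1385590_at read 1685, 447 and 377. One lower probe set, listed for the mast cell proteases Mcpt8, Mcpt9, Mcpt10 and Mcpt8l2, read 1128, 585 and 396, whereas no basophil or mast cell gene of the list reached the floor.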
